A study of Sus scrofa with 8 samples.

Results

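The genes described here are 9 interferon-stimulated genes, MX1, MX2, OAS1, ISG15, RSAD2, EIF2AK2, IRF7, GBP1 and USP18, in the lung of Tibetan and Duroc pigs. They were chosen by name, and every probe on the array that carried 1 of these names and was well above background on at least 1 array was taken. All 9 genes had such a probe, 14 probes in all, out of 34406 tested probes of 43603 on the array. Only 3828 genes with a tested probe had a symbol, because most probes of this array design carry no gene name in the tables used here. Of the 14 probes, 9 (for 7 genes) were named through a RefSeq accession of the array design. The other 5, which include the only probes of OAS1 and ISG15, were named through tables of the study that list probes in the order of results on these same arrays. These 5 were therefore not named independently of the outcome, and counts without them are given below.

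Interferons are secreted signals that a cell releases when its sensors detect nucleic acid of a virus. They bind receptors whose kinases of the JAK family phosphorylate STAT proteins, and these join IRF9 and activate genes that share a response element in their promoters. The products of these genes block entry, transcription, translation or release of viruses, while some of them amplify or dampen the pathway, and both the lining of the lung and its resident immune cells are known to use this program.

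The study compared 4 groups of female pigs, all 6 months of age, with 2 pigs per group and 1 pig per array (8 arrays, 1 color, Agilent). Tibetan pigs at high altitude (TH) stayed where the breed lives, at 3500 m, and Duroc pigs at low altitude (DL) stayed at 40 m. Tibetan pigs at low altitude (TL) and Duroc pigs at high altitude (DH) had been moved there from their home altitude at 1 month of age. The design asked how breed and altitude, and their interaction, act on gene expression in lung.

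The arrays of the unmoved groups (TH and DL) shared 1 slide, and those of the moved groups (DH and TL) shared another. The breed by altitude interaction, the slide, and being moved or not moved are thus the same contrast and cannot be told apart. TH and DH differed in breed, in slide and in having been moved, and so did TL and DL. DH and DL differed in altitude, in slide and in having been moved, and so did TH and TL. The lung label was checked by epithelial markers, of which 6 of 8 had a tested probe. All 6 were well above background on all 8 arrays, and SFTPC, a surfactant protein of alveolar type II cells, had group means between 18.57 and 18.97 on the log2 scale. The TL arrays stood apart, with a median raw spot signal of 324 and 333.5 against 207.5 to 230 on the other arrays. Differences that involve TL are given with the values from other ways of scaling for that reason. All values below are the deposited normalized log2 signals, on which 1 unit is a 2-fold change. The signals were of different probes, so levels of different genes are not compared. A difference was called when its limma adjusted p was below 0.0001, the threshold of the study, over all tested probes. A gene was taken at its brightest probe unless another is named.

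The 14 probes were well above background on all 8 arrays, and none of their spots was saturated or marked as an outlier. Between the 2 arrays of a group they differed by a median of 0.0312, against 0.0346 for tested probes as bright as these. The largest such difference was 0.249, for RSAD2 in DH. For 41 probes with 5 spots each, the 2 arrays of a group differed by a median of 0.047, and spots of the same probe on 1 array by 0.0509. For those 41 probes the pigs of a group were no further apart than spots on an array, and the p-values rest on this small spread.

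Most of the 9 genes followed 1 order of the groups. For 8 of them, at the brightest probe, both TH arrays lay above both DL arrays and both DL arrays above both DH arrays, an order found in 9.14% of all tested probes. GBP1 was the exception. Under each of the 4 ways of scaling the same 8 genes kept this order. In the deposited values TH was the highest and DH the lowest of all 4 groups for 6 genes, as for 1.92% of tested probes. These were MX1, OAS1, ISG15, RSAD2, EIF2AK2 and IRF7. The place of TL depended on the scaling. With the 75th percentile the mean of TL lay below that of DH for OAS1 (-0.189), EIF2AK2 (-0.165) and IRF7 (-0.381). At the brightest probe DH was the lowest group for 8 genes, as for 9.79% of tested probes, although 1 dimmer probe of MX2 had DL lowest and 1 of IRF7 had TL lowest. MX2 and USP18 were highest in TL, as were 26.6% of tested probes, and GBP1 was highest in DH, as were 12%. These were measurements on whole lung, in which fewer cells of a type and less RNA per cell cannot be told apart.

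**Figure D1:**
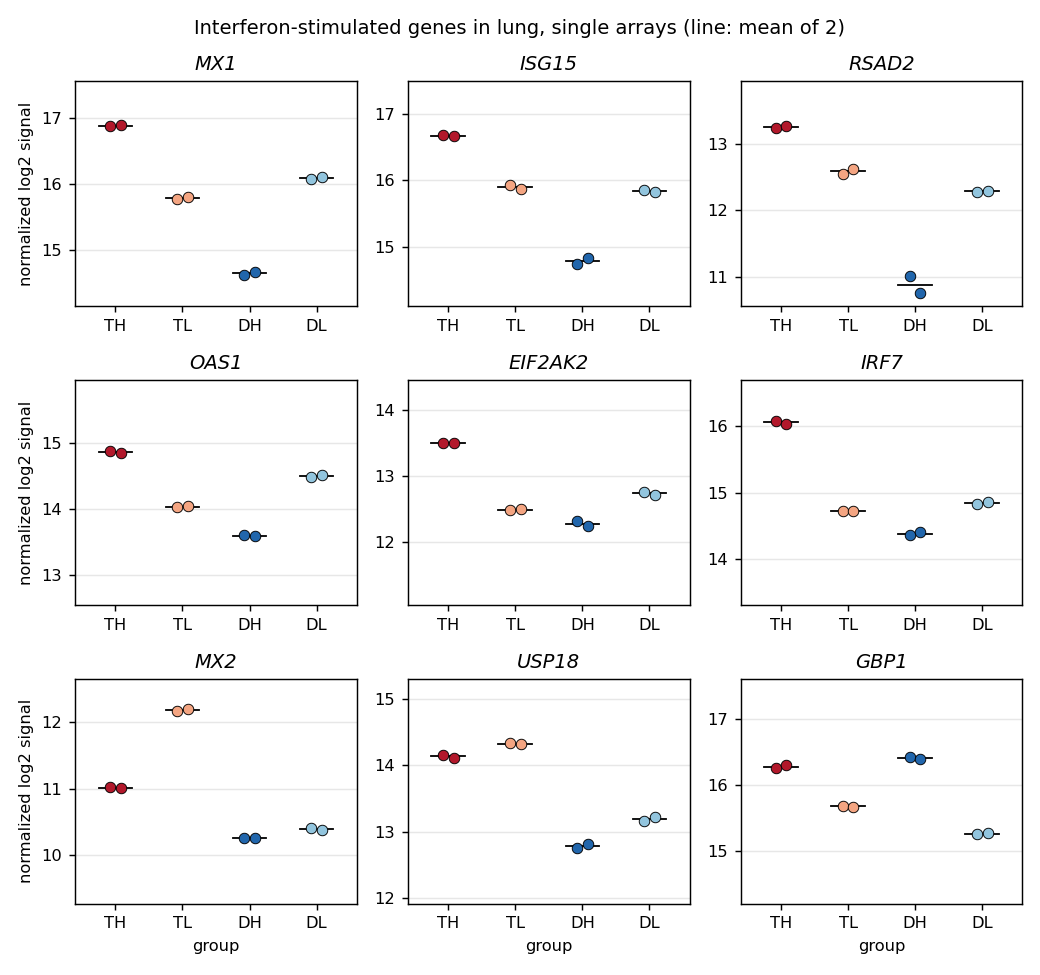
Normalized log2 signal (y axis, a window of the same height in every panel) of the brightest probe of each gene on the single arrays, by group (x axis), with points for the 2 pigs of a group and a line for their mean. The upper 6 panels have TH at the top and DH at the bottom, MX2 and USP18 are highest in TL, and GBP1 is highest in DH.

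Among the genes whose products act on viral proteins or membranes, MX1 encodes a dynamin-like GTPase that traps incoming nucleocapsids of influenza and related viruses. Its brightest probe (A_72_P302839) gave 16.87 and 16.89 in TH, 15.77 and 15.80 in TL, 14.63 and 14.68 in DH, and 16.08 and 16.11 in DL. TH was high, DH was low, and no group overlapped another. At high altitude MX1 was 4.69-fold higher in Tibetan than in Duroc pigs (2.23 on the log2 scale, 95% interval 2.15 to 2.31, limma adjusted p = 3.45e-06). The second MX1 probe (A_72_P010326) gave 16.62 and 16.54 in TH, 15.47 and 15.45 in TL, 14.34 and 14.34 in DH, and 15.78 in both DL pigs, and put TH above DH by 2.24.

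MX2 encodes the related GTPase, and in the RefSeq annotation of the Sscrofa11.1 assembly it lies beside MX1 on chromosome 13 with 1 gene between them. Its brightest probe (A_72_P177406) gave 11.02 and 11.00 in TH, 12.18 and 12.20 in TL, 10.26 and 10.25 in DH, and 10.41 and 10.37 in DL. Unlike its neighbor it was highest in TL, and DH and DL lay close together without overlap. TH exceeded DH 1.69-fold (0.75, 95% interval 0.69 to 0.82, limma adjusted p = 2.51e-05). Its 3 probes differed on DH minus DL, which was -0.14, -0.72 and 0.41, so that no direction is given for MX2 there. The other MX2 probes gave 11.07 and 11.07 in TH, 12.17 and 12.18 in TL, 9.96 and 9.94 in DH, and 9.52 and 9.56 in DL (A_72_P001276), and 9.87 and 9.83, 11.50 and 11.37, 8.59 and 8.75, and 9.34 and 9.45 in the same order (A_72_P027231). All 3 probes put TL highest and TH above both Duroc groups.

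RSAD2 encodes viperin, which makes a chain-terminating nucleotide and hinders budding from lipid-rich membranes. Its probe (A_72_P303019) gave 13.24 and 13.27 in TH, 12.56 and 12.62 in TL, 11.00 and 10.76 in DH, and 12.28 and 12.29 in DL. DH was the lowest group by more than 1 unit, although its pigs were further apart than those of any other group. TH exceeded DH 5.20-fold, the largest difference among the 9 genes (2.38, 95% interval 2.16 to 2.60, limma adjusted p = 3.18e-05).

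Among the genes that act on viral RNA and translation, OAS1 encodes an enzyme that senses double-stranded RNA and makes the messenger that activates RNase L. Its probe (A_72_P223657) gave 14.88 and 14.85 in TH, 14.02 and 14.05 in TL, 13.60 and 13.59 in DH, and 14.49 and 14.52 in DL. The groups followed the order TH, DL, TL, DH with no overlap. TH exceeded DH 2.40-fold (1.26, 95% interval 1.19 to 1.33, limma adjusted p = 9.02e-06).

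EIF2AK2 encodes PKR, a kinase that halts translation when it binds double-stranded RNA. Its probe (A_72_P077406) gave 13.50 in both TH pigs, 12.49 and 12.50 in TL, 12.32 and 12.24 in DH, and 12.76 and 12.72 in DL. TH stood about 1 unit above TL, and TL and DH were neighbors. TH exceeded DH 2.33-fold (1.22, 95% interval 1.13 to 1.31, limma adjusted p = 1.79e-05).

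GBP1 encodes a guanylate-binding GTPase that coats intracellular pathogens and is known above all as a target of interferon gamma. Its probe (A_72_P402908) gave 16.26 and 16.30 in TH, 15.69 and 15.67 in TL, 16.43 and 16.39 in DH, and 15.25 and 15.27 in DL. Here the 2 groups at high altitude were the 2 highest, and DH lay above TH without overlap. TH minus DH was -0.13 (95% interval -0.20 to -0.06), which was not called (limma adjusted p = 0.0132).

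Among the genes that modify proteins or feed back on the pathway, ISG15 encodes a ubiquitin-like protein that is attached to host and viral proteins. Its probe (A_72_P057621) gave 16.68 and 16.67 in TH, 15.93 and 15.87 in TL, 14.74 and 14.84 in DH, and 15.86 and 15.82 in DL. TL and DL were close together, between a high TH and a low DH. TH exceeded DH 3.70-fold (1.89, 95% interval 1.78 to 1.99, limma adjusted p = 9.99e-06).

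USP18 encodes the protease that removes ISG15 from proteins and also blocks signaling at the interferon receptor. Its brightest probe (A_72_P077621) gave 14.16 and 14.11 in TH, 14.34 and 14.32 in TL, 12.76 and 12.81 in DH, and 13.17 and 13.22 in DL. Both Tibetan groups lay above both Duroc groups, unlike ISG15, for which TL and DL lay side by side. TH exceeded DH 2.56-fold (1.35, 95% interval 1.26 to 1.45, limma adjusted p = 1.48e-05). A dimmer USP18 probe (A_72_P417087) gave 8.71 and 8.63 in TH, 8.94 and 8.84 in TL, 7.41 and 7.41 in DH, and 8.69 and 8.70 in DL, so that TH and DL overlapped there and only DH stood apart.

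IRF7 encodes the transcription factor that amplifies type I interferon production once it is itself induced. Its brightest probe (A_72_P065236) gave 16.08 and 16.04 in TH, 14.73 in both TL pigs, 14.36 and 14.40 in DH, and 14.83 and 14.87 in DL. TH stood more than 1 unit above each other group. TH exceeded DH 3.20-fold (1.68, 95% interval 1.60 to 1.76, limma adjusted p = 6.51e-06). The probe named through RefSeq (A_72_P077861) gave 13.75 and 13.76 in TH, 11.85 and 11.78 in TL, 12.03 and 12.02 in DH, and 12.44 and 12.42 in DL. It agreed on the high TH and the order of TH, DL and DH, but had TL and not DH as the lowest group.

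At high altitude, 8 of the 9 genes were called higher in TH than in DH, by 1.69-fold (MX2) to 5.20-fold (RSAD2), and 12 of the 14 probes were. Of all tested probes 9.33% were called in this comparison and 4.17% were called higher, with 5.16% lower. The median of the 9 differences was 1.35, against -0.01 for all tested probes. No gene changed sign with the way of scaling. With only the probes named through RefSeq, 6 of 7 genes were called higher, where 8.84% of the 2478 tested probes named that way were. The calls at 0.0001 depended on all 8 arrays being in the fit. Without either TH array no gene was called, and without any other single array 1 was, while no difference changed sign and 8 or 9 genes had an adjusted p below 0.05, as 58.9% of tested probes did with all arrays. All tested probes lost calls in the same way, to between 0.32% and 0.764%.

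DH against DL compared Duroc pigs moved to high altitude with those that stayed at low altitude, on different slides. MX1 was 2.72-fold lower in DH (fell by 1.44, 95% interval -1.52 to -1.36, limma adjusted p = 1.49e-05). ISG15 fell by 1.05 (limma adjusted p = 4.33e-05) and OAS1 fell by 0.90 (limma adjusted p = 2.43e-05). GBP1 rose 2.21-fold (1.15, 95% interval 1.07 to 1.22, limma adjusted p = 1.82e-05), the opposite direction. These 4 were the genes called, 3 lower and 1 higher, where 4.12% of tested probes were called lower, 5.83% higher and 9.95% in all. The other 5 differences were -1.41 for RSAD2, -0.47 for IRF7, -0.46 for EIF2AK2, -0.41 for USP18 and -0.14 for MX2, and all 9 genes had an adjusted p below 0.05, as 60.2% of tested probes did. No gene was called by limma at 0.0001 once any 1 of the 8 arrays was removed, and no sign changed. All tested probes lost calls as well. The dimmer USP18 probe was called lower with all 8 arrays, by -1.28.

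**Figure D2:**
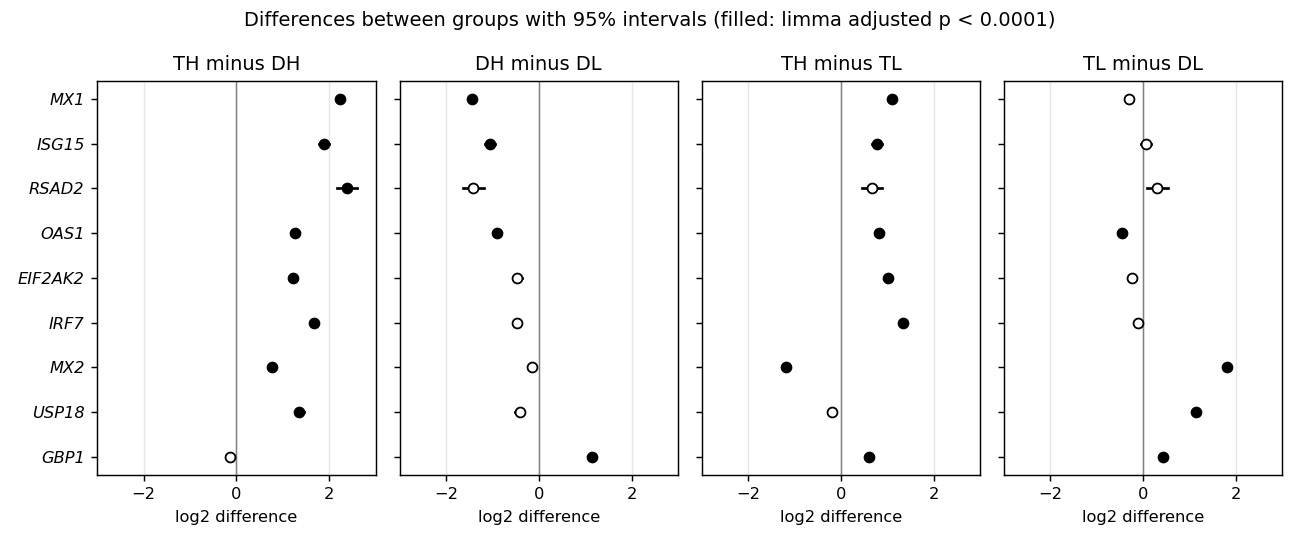
Log2 difference (x axis) of each gene (y axis, brightest probe) in 4 comparisons of groups, with bars for the 95% interval and filled points where limma called the difference. TH minus DH is positive for 8 of 9 genes, DH minus DL is negative for the same 8 at this probe (the probes of MX2 differ in sign there), and GBP1 runs against them in both.

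In Tibetan pigs, the comparison of TH with TL gave 6 genes called higher at high altitude. They were IRF7 (1.33), MX1 (1.10), EIF2AK2 (1.01), OAS1 (0.83), ISG15 (0.78) and GBP1 (0.60). MX2 was called lower, by -1.18. RSAD2 at 0.67 (limma adjusted p = 0.00106) and USP18 at -0.19 (limma adjusted p = 0.00473) were not called. This count of 7 stood in a comparison in which 37.1% of tested probes were called, 20.5% higher and 16.6% lower. The count fell when 1 array was left out, and so did the share of all tested probes called.

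At low altitude, where TL was compared with DL, the genes went different ways. MX2 was 3.47-fold higher in TL (1.80, limma adjusted p = 5.95e-07), USP18 was 2.20-fold higher (1.13, limma adjusted p = 5.13e-06) and GBP1 1.33-fold (0.42, limma adjusted p = 8.14e-05). OAS1 was lower by -0.47 (limma adjusted p = 3.92e-05). In the deposited values the other 5 genes lay between -0.31 (MX1) and 0.30 (RSAD2), and the interval of ISG15 was -0.05 to 0.17. The 4 calls compare with 37.5% of tested probes, of which 16% were higher and 21.5% lower. For all tested probes the median was -0.21, and for the 9 genes it was 0.06. When 1 array was left out, fewer of the 9 genes and fewer of all tested probes were called.

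The comparisons with TL depended on the scaling more than the others did. Scaling the processed signal to the 75th percentile of each array turned TL minus DL to -0.60 for ISG15, -0.09 for RSAD2 and -0.27 for GBP1. MX2 and USP18 stayed positive at 1.58 and 0.51. The genes already lower in TL moved further down, to -0.95 for MX1, -1.07 for OAS1, -0.65 for EIF2AK2 and -0.79 for IRF7. With this scaling limma also called MX1, ISG15, EIF2AK2 and IRF7 lower, and no longer called GBP1. Of all tested probes 9408 were called lower in place of 7399. In TH minus TL this scaling turned USP18 from -0.19 to 0.49, while MX2 stayed negative at -0.90. The genes already higher in TH than in TL rose to between 1.11 (RSAD2) and 2.04 (IRF7). The median of all tested probes for TH minus TL moved at the same time from 0.11 to 0.23. TH minus DH, DH minus DL and TH minus DL kept the sign of all 9 genes in the 4 ways of scaling.

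**Figure D3:**
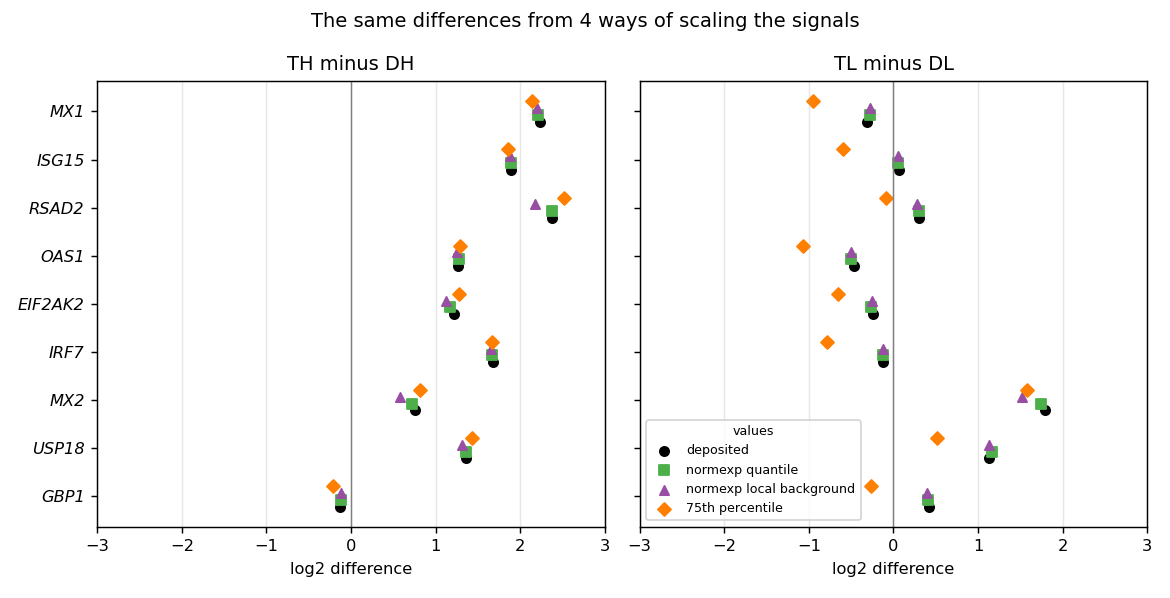
Log2 difference (x axis) of each gene (y axis) computed from the deposited values, from 2 corrections of the raw signal by normal-exponential convolution, and from the processed signal scaled to the 75th percentile. The 4 marks lie close together for TH minus DH, and for TL minus DL the 75th percentile mark lies to the left of the others for every gene except MX2.

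In the two-way model, the breed effect (Tibetan minus Duroc, averaged over altitudes) was positive for all 9 genes and called for 8, against 27.4% of tested probes called and 12.8% called higher. With 1 array left out, fewer of the genes and fewer of all tested probes were called. The breed effect was largest for RSAD2 (1.34), MX2 (1.28) and USP18 (1.24) and smallest for GBP1 (0.14, limma adjusted p = 0.00176), which turned to -0.24 with the 75th percentile. The altitude effect (high minus low, averaged over breeds) was called for 3 genes, GBP1 (0.87), IRF7 (0.43) and MX2 (-0.66), against 26.3% of tested probes. It changed sign with the scaling for MX1, OAS1, ISG15 and USP18. With the 75th percentile, 6700 probes were called higher and 3755 lower for altitude, against 4831 and 4210 with the deposited values.

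The interaction is the altitude difference of Tibetan pigs minus that of Duroc pigs. It was called for 7 of the 9 genes, where 28.4% of tested probes were called. It was positive for MX1 (2.54, 95% interval 2.43 to 2.65, limma adjusted p = 1.52e-06), RSAD2 (2.08), ISG15 (1.83), IRF7 (1.80), OAS1 (1.73) and EIF2AK2 (1.47), and negative for MX2 (-1.04, 95% interval -1.13 to -0.95, limma adjusted p = 9.19e-06). Positive calls made up 14.9% and negative calls 13.5% of tested probes. For the 6 positive genes the Tibetan pigs had more signal at high than at low altitude, and the Duroc pigs had less. USP18 (0.22, limma adjusted p = 0.0119, and 0.92 with the 75th percentile) and GBP1 (-0.55, limma adjusted p = 1.36e-04, and 0.05 with the 75th percentile) were not called, whereas the dimmer USP18 probe was (1.06). The median over the 9 genes was 1.73, against 0.21 for all tested probes. With probes named through RefSeq alone, 4 of 7 genes were called positive and 1 negative, where 27.8% of those probes were called. With 1 array left out, which leaves 1 array in a group, fewer of the 9 genes and fewer of all tested probes were called. No sign changed.

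The study chose differentially expressed genes by a breed effect and an interaction that both passed. With limma at 0.0001, 7 of the 9 genes met both conditions, where 16.6% of tested probes did. The study's own test was a two-way ANOVA, which is not the moderated test used here. On the slide that TH and DL shared, TH lay above DL for all 9 genes. Of these 7 were called, where 6.9% of tested probes were called higher, 7.24% lower and 14.1% in all, and OAS1 (0.36) and RSAD2 (0.97) were not. None of the 9 was called by limma at 0.0001 once any 1 array was left out or with the replicate number as a block, although all 9 had an adjusted p below 0.05 in each of these fits and none changed sign without an array. On the other slide TL exceeded DH for 8 genes, 6 of them called, and GBP1 was called lower by -0.73, against 33.9% of tested probes called in all. With 1 array left out, fewer of the 9 genes and fewer of all tested probes were called in TL minus DH. With the block 3 of the 9 genes and 17.4% of all tested probes were called there, and 0.718% of all tested probes in TH minus DL. The sign of TL minus DH depended on the scaling for OAS1, EIF2AK2 and IRF7. Breed and altitude both differ in each of these comparisons within a slide.

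The genes thus moved together in part. Around its own mean over the 8 arrays, the mean of the 9 genes stood at 0.70 and 0.69 in TH, 0.14 and 0.15 in TL, -0.70 and -0.72 in DH, and -0.14 and -0.13 in DL. ISG15 lay closest to this mean profile, with a root mean square difference of 0.20 log2 units over the 8 arrays. OAS1, EIF2AK2, IRF7, USP18, MX1 and RSAD2 lay between 0.25 and 0.39. MX2 at 0.67 and GBP1 at 0.70 lay furthest from it.

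Among 3819 other genes with a symbol, the 5 closest to the mean profile were TPD52 (root mean square difference 0.0612), TSPAN1 (0.0664), SLC15A2 (0.127), XAF1 (0.147) and HSD17B2 (0.150). Of these only XAF1, a proapoptotic protein, was on the lists of interferon genes used here. TPD52, the closest, gave 12.08 and 12.09 in TH, 11.45 and 11.47 in TL, 10.76 and 10.73 in DH, and 11.16 and 11.17 in DL. TPD52, TSPAN1, SLC15A2 and XAF1 were named through the tables of the study alone.

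Further genes of the pathway were taken from 4 lists, of which 47 of 111 genes had a tested probe. For the interaction 19 of the 47 were called, 15 positive and 4 negative, beside 28.4% of all tested probes (14.9% positive and 13.5% negative). In TH against DH, 12 were called, 9 higher and 3 lower, beside 9.33% of all tested probes (4.17% higher and 5.16% lower), and the median difference was 0.28. With 1 array left out, fewer of the 47 genes and fewer of all tested probes were called in both comparisons (limma at 0.0001).

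The ligands and receptors had 6 tested genes of 14, and IFNA1 and IFNE were the only interferon genes among them. IFNA1 was well above background in TL alone, where 31723 and 31641 probes passed against 26466 to 29319 on the other arrays. Its normalized signal was 5.31 and 5.53 in TL and 4.47 and 5.42 in DH, which overlapped. It was 4.42 and 5.30 in TH, and 4.84 and 5.04 in DL. IFNE, an interferon of epithelia, was not well above background in DL and was so on 1 of 2 DH arrays. In the deposited values IFNE was at least 6.79-fold higher in TL than in DL. For this, DL was set at the lowest signal that passed as above background. No bound from other scaling is given. No interaction is given for IFNE, since its level in DL is only a bound. Of the receptor subunits, IFNAR2 was called lower in TH than in DH, by -0.87 (limma adjusted p = 3.73e-05). IFNAR1 gave 12.45 and 12.42 in TH, 11.45 and 11.44 in TL, 12.23 and 12.21 in DH, and 11.83 and 11.80 in DL, with an interaction of 0.59 (limma adjusted p = 7.08e-05). So neither receptor subunit had the order of the groups seen in the 8 genes.

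Of the kinases, STATs and interferon regulatory factors, 13 of 18 were tested, and none was called between TH and DH by limma at 0.0001, where 9.33% of all tested probes were. An adjusted p below 0.05 was found for 9 of the 13, and for 58.9% of all tested probes. STAT2 gave 15.09 and 15.18 in TH, 14.73 and 14.69 in TL, 14.53 and 14.51 in DH, and 14.53 and 14.52 in DL. STAT2, which signals downstream of the type I receptor, was highest in TH, and its DH and DL pigs overlapped, unlike those of the 9 genes. TH minus DH was 0.61 for STAT2 (limma adjusted p = 1.39e-04).

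IRF9 completes the complex that binds the response element, and it gave 13.71 in both TH pigs, 12.73 and 12.65 in TL, 13.46 and 13.57 in DH, and 13.48 and 13.53 in DL. It was low in TL, and its DH and DL pigs overlapped. TH minus DH was 0.19 (limma adjusted p = 0.0232). Its interaction of 1.01 was not called (limma adjusted p = 1.14e-04). TYK2, the kinase bound to the type I receptor, had an interaction of 2.24 (limma adjusted p = 4.38e-06), and IRF3, the factor that first induces interferon, of 1.52. These were the 2 genes of the list called positive for it, and 1 was called negative, where 14.9% and 13.5% of all tested probes were. With other scaling TYK2 was as low as 1.54 and IRF3 as low as 1.02.

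Of the sensors of nucleic acid and their adaptors 11 of 19 were tested, and 5 were called for the interaction, all positive. Of all tested probes 28.4% were called for it and 14.9% were called positive. They were TLR9 (2.17), DDX58 (2.15), TLR7 (2.12), TLR3 (0.98) and IFIH1 (0.54). With other scaling TLR9 was as low as 0.55, DDX58 as low as 1.25 and IFIH1 as high as 1.11. TLR7 was as low as 1.63 and TLR3 as low as 0.78. DDX58 encodes RIG-I and IFIH1 encodes MDA5, the cytoplasmic RNA sensors, which are themselves induced by interferon. TH exceeded DH for IFIH1 (0.91) and TLR7 (1.25), which were called, and for DDX58 (1.46, limma adjusted p = 1.55e-04, and as low as 0.84 with other scaling), which was not. TLR3 was called lower in TH than in DH, by -0.85.

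The list of other interferon-stimulated genes had 17 of 60 tested, and 9 were called for the interaction, 7 positive and 2 negative. Of all tested probes 14.9% were called positive and 13.5% negative. The 4 largest of the list were DDX60 (3.16), a helicase that aids RIG-I, CXCL9 (-2.83), a chemokine that draws T cells, IDO1 (-2.35), an enzyme that degrades tryptophan, and OASL (1.84), a relative of OAS1. With other scaling the value of DDX60 was as low as 1.04 and that of CXCL9 was -1.73. OASL was as low as 1.38, and IDO1 was -1.87. In TH against DH 8 of the 17 were called, 7 of them higher, where 9.33% of all tested probes were called and 4.17% higher. The 7 were DDX60 (1.88), IFIT1 (1.83), XAF1 (1.55), IFI44L (1.29), OASL (1.14), CMPK2 (0.81) and OAS2 (0.57). CXCL9 was lower, by -2.37. With other scaling DDX60 was as low as 0.57 and CXCL9 was -1.51. The genes called in TH against DH were named after their values were seen. None of the 47 genes except IFNA1 changed its sign in TH minus DH with the scaling, whereas 8 did for the interaction.

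**Figure D4:**
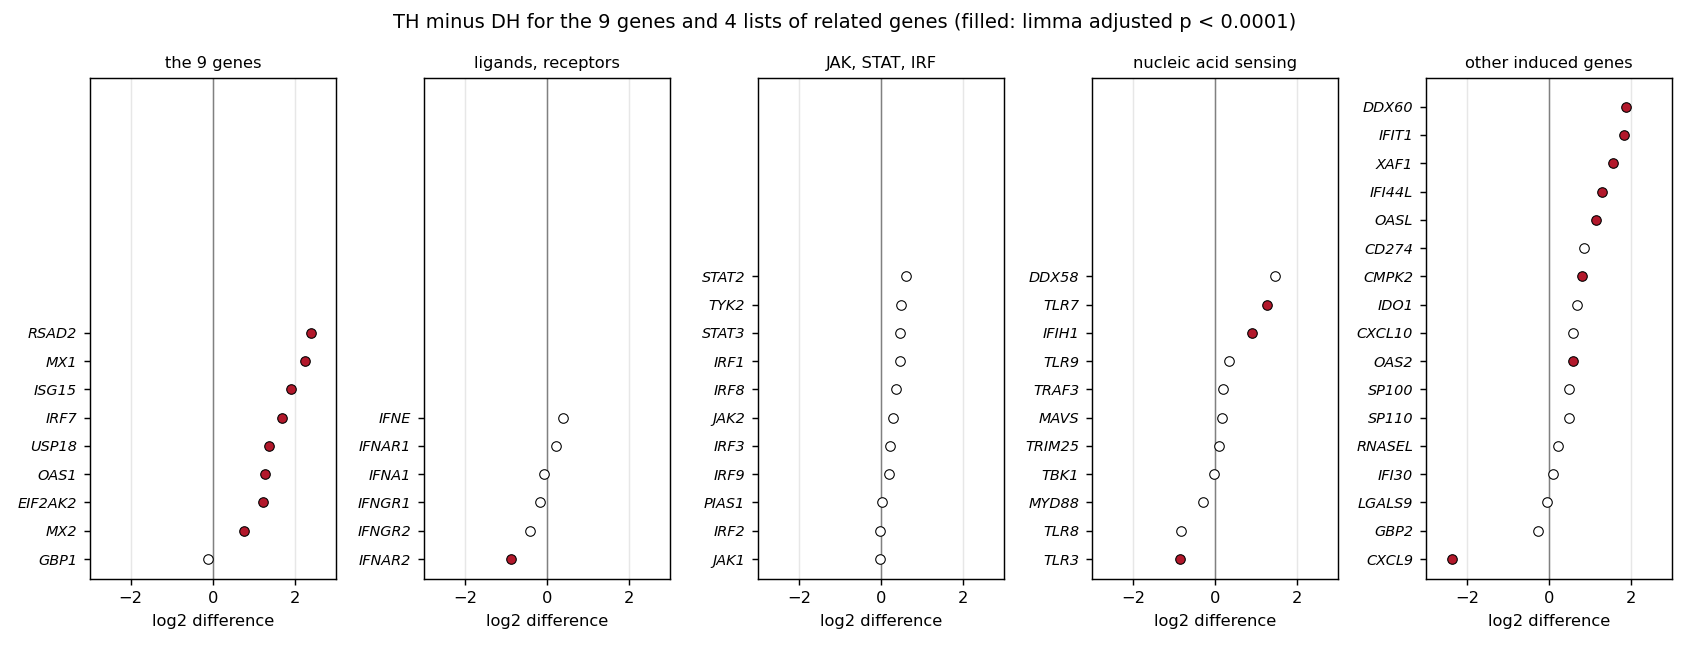
Log2 difference TH minus DH (x axis) of the 9 genes and of tested genes of 4 related lists (y axis, each list sorted by its value, 45 of the 47 genes shown), with filled points where limma called the difference. The 9 genes and the other induced genes hold most of the filled points to the right of 0.

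Markers of other cell types also differed between the groups, and their part in these results was not tested. Of the B cell markers, CD79A had a mean log2 signal of 12.48 in TH and 9.57 in DH, against 8.28 in TL and 9.80 in DL. MS4A1 had 14.55 in TH and 12.63 in DH, against 12.29 in TL and 12.71 in DL. Both were called higher in TH than in DH (2.92 and 1.92 on the log2 scale). The means of the T and NK cell markers (8 of 10) stood at 11.43 to 11.45 in TH, 10.74 to 10.75 in TL, 11.67 to 11.68 in DH and 11.03 in DL. Of these, 3 were called lower in TH than in DH, KLRB1 (-1.64), CD4 (-0.77) and NKG7 (-0.55), where 5.16% of all tested probes were. CD2, CD3D, CD3E and CD8A were higher without a call, and CD3G was lower without a call (-0.23, limma adjusted p = 0.00319). The means of the macrophage markers (3 of 7) stood at 13.18 to 13.19 in TH, 12.84 to 12.86 in TL, 13.44 to 13.46 in DH and 13.37 to 13.40 in DL. Of these, CD14 and CD163 were highest in DH and SIGLEC1 was highest in DL. The epithelial markers (6 of 8) stood at 15.82 in TH, 15.93 to 15.98 in TL, 16.26 to 16.29 in DH and 16.05 in DL. Of the plasmacytoid dendritic markers only GZMB and TCF4 had a tested probe, and these went different ways, so no mean is given. GZMB was highest in DH (mean 14.42, against 12.26 in TH, 12.59 in TL and 12.70 in DL). TCF4 was highest in TL (11.44, against 9.64 in TH, 9.98 in DH and 9.60 in DL). CORO1A, the only pan-leukocyte marker tested, stood at 17.40 to 17.43 in TH, 16.27 to 16.38 in TL, 17.20 to 17.22 in DH and 16.81 to 16.89 in DL. No neutrophil marker had a tested probe. All markers tested were well above background on all 8 arrays. On the single arrays both B cell markers had TH above DL and DL above DH, the order of the 8 genes. With TL as the lowest group they had the full order TH, DL, DH, TL of the RefSeq-named IRF7 probe. In the deposited values none of the 9 genes was lowest in TL at the brightest probe. With the 75th percentile TL had the lowest mean for OAS1, EIF2AK2, IRF7 and GBP1. The means of the other lists did not have TH above DL and DL above DH.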

How the data were processed

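Lung RNA of 4 groups of pigs (TH, TL, DH and DL, 2 arrays each) was measured on 1-color Agilent arrays. The authors scanned the arrays and extracted the intensity of each spot with Feature Extraction (10.7.3.1 in the file headers, 9.1 in the submitters' notes), and deposited a table of log2 values that the methods describe as normalized by RMA. The values of this table rank the probes as the processed intensity does (Spearman's rho of at least 0.999992) and have a median of 7.40 on every array. They were used as deposited. Quantile normalization forces a common distribution on the arrays, so a change in total signal cannot be seen in it.

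Probes well above background on at least 1 array were tested (34406) by limma 3.58.1 in R 4.3.3, in 1 model of breed, altitude and their interaction over all 8 arrays, with Benjamini-Hochberg adjustment over all of them and a call at an adjusted p below 0.0001. The moderated test had 4.93 degrees of freedom, so the number of arrays limits the precision. Tables and figures were made with Python 3.11.15, pandas 2.3.3 and matplotlib 3.10.9, and the steps were tested on simulated data.

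Symbols came from RefSeq accessions in the array files (2683 of 3250 matched a symbol) and from tables of the study (3655 probes), which are in part and ordered by results on these arrays. The build behind the array design is not given in the sources used here, and coordinates are not given. Of the authors' own comparisons no values were used.

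The genes, the lists and the markers were chosen with earlier results of these data known. Named genes were all tested probes of the 9 genes, STAT2 and IRF9, the up to 4 genes of each list with the largest interaction among those called, and the 5 genes closest to the mean profile. Results of 3 genes of the lists are not reported here. Alternatives were 3 other ways of scaling (normal-exponential convolution of the raw median signal with an offset of 0, the same with local background and an offset of 50, both quantile normalized, and the processed signal scaled to the 75th percentile), other filters on dim probes, no moderation, an intensity trend, an adjusted p below 0.05, the replicate number or the slide as a block, other probes of a gene, each array left out, and, added after seeing the data, both TL arrays left out and, for the comparisons within a slide, each array left out.

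Replicate numbers of different groups did not mark pairs: deviations from the group means of same-numbered arrays correlated between -0.04 and 0.09.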

Additional observations from a re-analysis of the deposited data

Results flagged for a closer look

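For 7 genes the difference between high and low altitude was not the same in Tibetan and Duroc pigs, by limma's test of the interaction over all tested probes. On the log2 scale the Tibetan difference exceeded the Duroc difference by 2.54 for MX1, 2.08 for RSAD2, 1.83 for ISG15, 1.80 for IRF7, 1.73 for OAS1 and 1.47 for EIF2AK2. For MX2 it was smaller by the same measure (-1.04). For MX1, OAS1, ISG15, RSAD2, EIF2AK2 and IRF7 both Tibetan pigs at high altitude lay above both at low altitude, and both Duroc pigs at high altitude lay below both at low altitude. This contrast is the same as that between the slides and that between moved and unmoved pigs, and the 3 cannot be told apart.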

How the results depend on the processing

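The counts of genes called moved more than the differences behind them. In TH minus DH the 8 calls became 1 with the replicate block and 1 without both TL arrays. Of all tested probes 0.605% and 0.663% were called in these fits, in place of 9.33%. In DH minus DL the 4 calls became 8 with probes above background on all arrays and 8 with an intensity trend. They became 9 at an adjusted p below 0.05, as for 60.2% of all tested probes. With RefSeq names alone 2 were called, where 12.3% of the probes named that way were. By limma 0 were called with the replicate block and 0 without both TL arrays, as were 0% of all tested probes. In both of these fits 9 had an adjusted p below 0.05. In TL minus DL the 4 became 2 with the convolution of raw signals, 7 with the 75th percentile, 8 at 0.05 and 2 with the replicate block. Over all tested probes that convolution called 10280 there in place of 12906, and the 75th percentile called 15159. At 0.05 77.4% of all tested probes were called there, and with the block 20.9%. For altitude the 3 became 5 with the 75th percentile, 5 with probes above background on all arrays, 5 with the trend and 8 at 0.05. The 75th percentile called 10455 of all tested probes for altitude in place of 9041, and at 0.05 70.8% were called. For breed the 8 became 5 with the replicate block. The 19 pathway calls for the interaction became 37 at 0.05, 10 with the replicate block and 11 with RefSeq names alone. At 0.05 73.7% of all tested probes were called for the interaction, and with the block 11.9%. Of the probes named through RefSeq 27.8% were. The replicate numbers gave no sign of pairing, and the block takes degrees of freedom from a fit with few. The interaction of GBP1 turned to 0.0519 with the 75th percentile. With 1 array left out, a group holds 1 array. The calls then fell in all 7 comparisons of the 9 genes and for the pathway genes. Fewer of all tested probes were called as well. In none of the 7 comparisons of the 9 genes did a sign change. The interaction of MX2 lost its call under the block (limma adjusted p = 1.02e-04) and without any 1 array. That of RSAD2 lost it under the block (3.87e-04), without moderation (3.22e-04) with the convolution of raw signals (1.65e-04) and without any TH, DL or TL array (5.62e-04 to 6.64e-04). Without any of those 6 arrays ISG15 (1.18e-04 to 1.33e-04) and EIF2AK2 (1.19e-04 to 1.76e-04) lost theirs as well. Over all tested probes that convolution called 1520 in TH minus DH in place of 3211, and 1057 in DH minus DL in place of 3424. Over all tested probes the median interaction was 0.21 as deposited, 0.33 with the 75th percentile and 0.07 with local background. The slide as a block was put in place of the interaction. The slide and the interaction are the same contrast, so that fit is the same model. Its breed and altitude effects were fixed in advance and say nothing about the slide.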

Other observations

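GBP1 was not alone in rising from DL to DH. Of the genes on the list of other interferon-stimulated genes, CXCL9 (2.53, limma adjusted p = 1.11e-05), IDO1 (1.86, limma adjusted p = 2.01e-05) and GBP2 (1.13, limma adjusted p = 3.27e-05) were called higher in DH than in DL, and these were the 3 of 17 called in that direction, where 5.83% of all tested probes were. None of them was called by limma at 0.0001 once any 1 array was left out, when at most 0.116% of all tested probes were. As background, these genes and GBP1 are known as targets of interferon gamma. CXCL9 gave 8.52 and 8.46 in TH, 8.79 and 8.78 in TL, 10.89 and 10.83 in DH, and 8.35 and 8.33 in DL, so that DH alone stood high. IDO1 gave 13.14 and 13.18 in TH, 13.68 and 13.62 in TL, 12.52 and 12.46 in DH, and 10.68 and 10.58 in DL, so that DL alone stood low. GBP2 gave 13.76 and 13.73 in TH, 13.30 and 13.35 in TL, 13.97 and 14.06 in DH, and 12.90 and 12.88 in DL, the order of groups seen for GBP1. The choice of these 3 followed a look at their values. DH minus DL was positive for all 3 under each of the 4 ways of scaling, and that of CXCL9 was as low as 1.59.

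Of the 17 tested genes of that list 3 were called lower in DH than in DL, where 4.12% of all tested probes were, and none without any 1 array (limma at 0.0001). DDX60 (-2.07, and -0.65 with other scaling) and IFIT1 (-1.31) were among them. IFIT1 gave 13.73 in both TH pigs, 13.31 and 13.32 in TL, 11.89 and 11.91 in DH, and 13.18 and 13.23 in DL, the low DH of MX1, ISG15 and RSAD2.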
